A study of Homo sapiens with 24 samples.

Results

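The genes described here are 8 members of the PARP family, PARP1, PARP2, PARP8, PARP9, PARP10, PARP12, PARP14 and ZC3HAV1, together with DTX3L, the binding partner of PARP9. They were found by symbol in the deposited table of 25541 genes and merged loci, where each of the 9 has a row of its own, and all 9 passed the filter on low values that left 20162 rows for testing. RNA sequencing covered 24 libraries from 2 derivatives of the human luminal breast cancer line T47D: T47D-Y, labelled as progesterone receptor null, and T47D-co, labelled as receptor-positive. Cells received interferon-alpha (IFN, 20 IU/ml) or water for 18 h, followed for 6 h by ethanol vehicle (EtOH) or by R5020, a synthetic progestin, at 10 nM. The 8 groups are thus each line given EtOH and water, R5020 and water, EtOH and IFN, or R5020 and IFN, with 3 biological replicates a group. All cultures shared a medium with foetal bovine serum and insulin. Each receptor state is represented by 1 derivative, so receptor state and any other difference between the lines cannot be told apart. The comparisons address the question in the series' title, whether the progesterone receptor attenuates interferon signalling.

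PARP enzymes take ADP-ribose from NAD and attach it to proteins or nucleic acids, either as long chains (PARP1 and PARP2, at broken DNA) or as single units (PARP8, PARP10, PARP12 and PARP14). PARP9 carries macrodomains that read ADP-ribose and works in a complex with DTX3L, a ubiquitin ligase of the Deltex family. ZC3HAV1, also called PARP13 or ZAP, has lost catalytic activity and binds CpG-rich viral RNA to send it to decay. PARP9, DTX3L, PARP10, PARP12, PARP14 and ZC3HAV1 are known interferon-stimulated genes, and many genes of this kind carry an interferon-stimulated response element (ISRE) near their start.

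Depth was 14141310 to 33607493 estimated fragments per library. Levels are given as scaled fragments, the estimated fragments of a gene in a library after the 24 libraries were brought to 1 common scale. The deposited values appear to have been scaled separately for each line and IFN state, an inference from the values themselves. Differences between those 4 blocks of libraries other than scale cannot be told apart from IFN and line. PGR, the gene of the progesterone receptor, lay at 418 to 719 scaled fragments in T47D-Y and 11810 to 27960 in T47D-co. ISG15, an interferon-stimulated gene, lay at 9.92 to 72.2 without IFN and 368 to 659 with it. The progestin target FKBP5 is part of a merged row and checks the labels less directly. Given water, this row averaged 2076 scaled fragments with EtOH and 21580 with R5020 in T47D-co. In T47D-Y it averaged 1217 with EtOH and 2106 with R5020, and PGR averaged 692.5 and 465. Both rows thus moved with R5020 in T47D-Y as well. The luminal markers KRT8, EPCAM and ESR1 were high in all 24 libraries (at least 10550, 1445 and 4109 scaled fragments), while the leukocyte gene PTPRC did not exceed 9.21 and the T cell gene CD3E 7.11. In 4 libraries, all given water, mitochondrial transcripts made up 0.942 to 1.07% of fragments against 3.17 to 4.74% in the other 20. In bulk RNA, a change in the share of cells that express a gene and a change in RNA per cell cannot be told apart.

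The promoter sequences of the 4 genes that hold an ISRE core are shown because IFN raised all 4 of these genes in both lines. RefSeq windows of 300 bases (250 before and 50 after the start of transcription, build GRCh38.p14) were available for 8 of the 9 genes, PARP10 being the exception, as 11 windows. The core, GAAA followed by any 2 bases and GAAA, was searched on both strands, where the other strand reads TTTC, any 2 bases, TTTC. Sequences run 5′ to 3′ on the gene's own strand, with the match in capitals.
DTX3L, chr3:122564088-122564387, plus strand: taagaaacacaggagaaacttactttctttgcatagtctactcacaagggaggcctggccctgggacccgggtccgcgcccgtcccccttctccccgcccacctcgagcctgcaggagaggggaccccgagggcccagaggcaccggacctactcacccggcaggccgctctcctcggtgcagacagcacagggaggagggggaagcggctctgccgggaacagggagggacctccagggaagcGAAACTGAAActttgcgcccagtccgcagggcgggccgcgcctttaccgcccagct
PARP9, chr3:122564251-122564550, minus strand: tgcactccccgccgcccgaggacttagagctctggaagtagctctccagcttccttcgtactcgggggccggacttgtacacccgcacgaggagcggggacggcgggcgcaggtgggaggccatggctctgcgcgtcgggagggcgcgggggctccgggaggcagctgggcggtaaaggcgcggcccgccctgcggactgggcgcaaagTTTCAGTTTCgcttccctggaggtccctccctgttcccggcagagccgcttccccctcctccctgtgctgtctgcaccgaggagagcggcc
PARP14, chr3:122680589-122680888, plus strand: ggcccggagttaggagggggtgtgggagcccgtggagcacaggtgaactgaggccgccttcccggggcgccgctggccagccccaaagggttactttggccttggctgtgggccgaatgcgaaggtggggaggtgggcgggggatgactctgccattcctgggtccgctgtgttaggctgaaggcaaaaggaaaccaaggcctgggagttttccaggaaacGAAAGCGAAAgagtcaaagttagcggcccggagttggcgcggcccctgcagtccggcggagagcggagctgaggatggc
PARP12, chr7:140062902-140063201, minus strand: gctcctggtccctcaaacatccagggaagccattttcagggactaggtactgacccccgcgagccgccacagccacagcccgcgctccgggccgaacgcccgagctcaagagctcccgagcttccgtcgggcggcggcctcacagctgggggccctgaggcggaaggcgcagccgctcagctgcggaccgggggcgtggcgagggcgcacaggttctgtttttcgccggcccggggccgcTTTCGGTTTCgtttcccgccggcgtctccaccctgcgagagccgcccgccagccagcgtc

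DTX3L and PARP9 are transcribed in opposite directions from neighbouring starts, their windows share 137 bases, and the capitals in both are the same 10 bases, chr3:122564332-122564341, read from either strand. The match begins 6 bases before the DTX3L start and 41 before the PARP9 start. In PARP14 it begins 29 bases before the start, and in PARP12 10 bases before. No match to these letters was found in the windows of PARP1, PARP2, PARP8 or ZC3HAV1, or in the other PARP9 window. The core occurs in 3.57% of 35116 RefSeq windows and 4.38% of 27305 genes. The palindromic progesterone receptor element, searched as GNACA, any 3 bases and TGTNC, was found in none of the 11 windows and in 0.39% of windows overall. Such matches describe the letters in a window and say nothing of binding.

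IFN raised 6 of the 9 genes, PARP9, DTX3L, PARP14, PARP12, PARP10 and ZC3HAV1, in both lines given EtOH. In T47D-co these 6 stand beside 1.00% of the 20162 tested rows called in either direction, and 0.570% called higher. In T47D-Y they stand beside 4.46% of rows called, 2.53% higher. A gene is called here at a Benjamini-Hochberg adjusted p under 0.05 from limma, a linear model fitted to log2(scaled fragments + 1) over all 8 groups. The median log2 fold change of the 9 genes was 1.27 in T47D-Y and 0.74 in T47D-co, against -0.001 and -0.004 over all tested rows. PARP1, PARP2 and PARP8 were not called in either line.

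**Figure D1:**
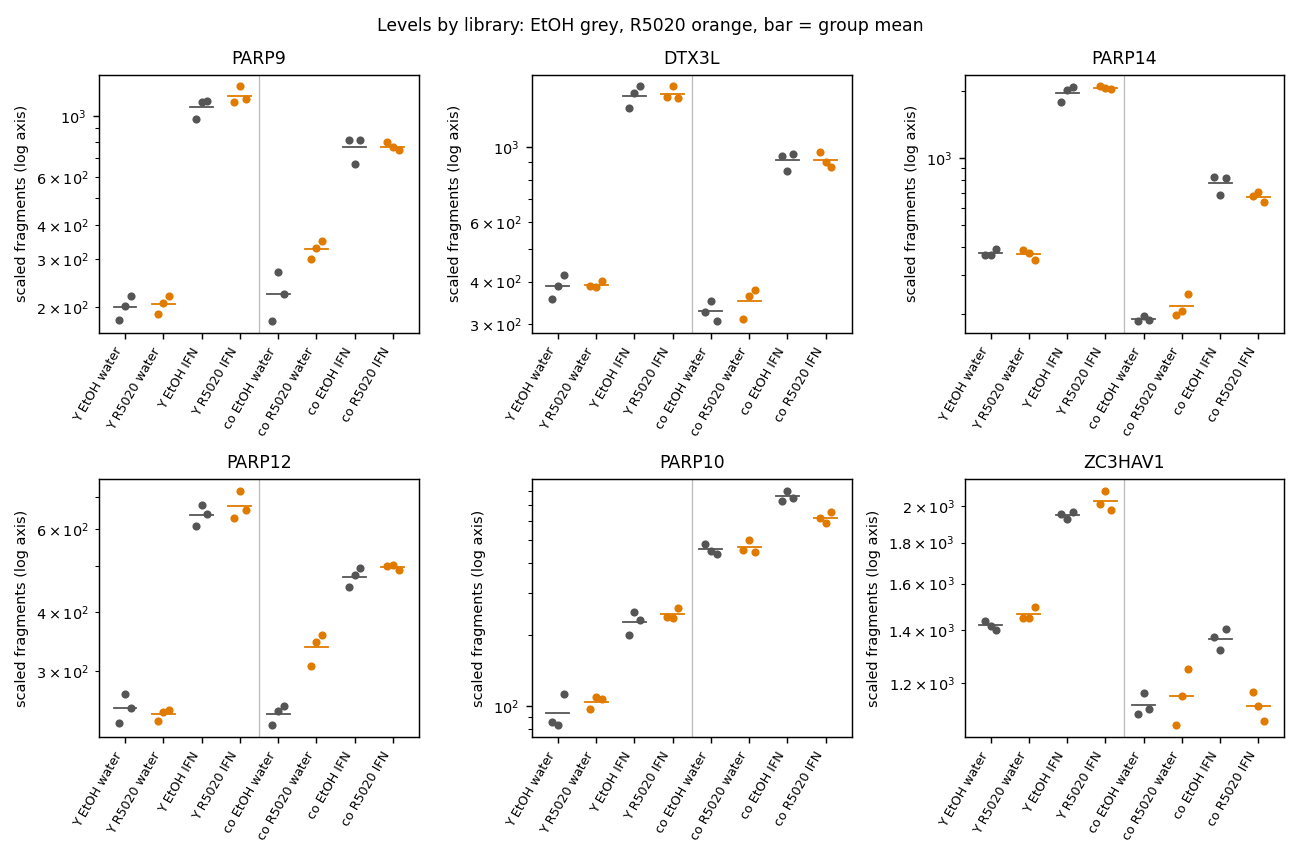
Level of PARP9, DTX3L, PARP14, PARP12, PARP10 and ZC3HAV1 in each of the 24 libraries, in scaled fragments on a log axis, by group; points are libraries (grey EtOH, orange R5020), bars are means of 3 libraries, Y is T47D-Y and co is T47D-co. The IFN groups of PARP9, DTX3L, PARP14, PARP12 and PARP10 lie above the water groups of the same line and vehicle, whereas ZC3HAV1 in T47D-co given R5020 lies at 1124 with IFN and 1157 with water.

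PARP9, the macrodomain reader, had the highest estimate in T47D-Y, ahead of PARP14 by less than the error. Its level was 180, 203 and 220 scaled fragments in the 3 T47D-Y libraries given EtOH and water, and 977, 1128 and 1134 in those given EtOH and IFN. In T47D-co it was 179, 269 and 224 with water and 816, 670 and 820 with IFN. The groups do not overlap in either line, and the water libraries of the lines overlap while the IFN libraries of T47D-Y all lie above those of T47D-co. PARP9 rose by 2.42 ± 0.11 (log2 fold change ± SE, limma adjusted p = 1.56e-14) in T47D-Y and by 1.79 ± 0.11 (adjusted p = 1.72e-11) in T47D-co, 5.36-fold and 3.45-fold.

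DTX3L, the E3 ligase partner, held 354, 389 and 419 scaled fragments in T47D-Y with EtOH and water and 1304, 1440 and 1510 with EtOH and IFN. In T47D-co the values were 325, 350 and 306 with water and 937, 851 and 955 with IFN. Again no library of a water group reached an IFN group. The rise was 1.87 ± 0.07 (limma adjusted p = 8.87e-16) in T47D-Y and 1.48 ± 0.07 (adjusted p = 2.59e-13) in T47D-co.

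PARP14, a mono-ADP-ribosyltransferase with macrodomains, was present at 367, 367 and 390 scaled fragments in T47D-Y with EtOH and water and at 1796, 2026 and 2084 with EtOH and IFN. T47D-co libraries had 186, 196 and 187 with water and 823, 683 and 816 with IFN. The T47D-co levels were below the T47D-Y levels in both states, and IFN separated the groups in both lines. PARP14 rose by 2.39 ± 0.08 (limma adjusted p = 6.92e-18) in T47D-Y and 2.02 ± 0.08 (adjusted p = 6.34e-16) in T47D-co, the largest change of the 9 genes in the latter.

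PARP12, a mono-ADP-ribosyltransferase with zinc fingers that can bind RNA, was found at 232, 268 and 250 scaled fragments in T47D-Y given EtOH and water and at 610, 675 and 644 with EtOH and IFN. The T47D-co values were 230, 246 and 252 with water and 451, 479 and 496 with IFN. The water libraries of the lines overlap, and the IFN libraries do not. It rose by 1.36 ± 0.07 (limma adjusted p = 1.05e-13) in T47D-Y and 0.97 ± 0.07 (adjusted p = 2.94e-10) in T47D-co.

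PARP10, another mono-ADP-ribosyltransferase, started from very different levels in the lines. In T47D-Y it was 86.2, 83.3 and 113 scaled fragments with EtOH and water and 199, 250 and 231 with EtOH and IFN. In T47D-co it was 479, 448 and 437 with water and 725, 803 and 750 with IFN. The IFN libraries of T47D-Y stayed below the water libraries of T47D-co. PARP10 rose by 1.27 ± 0.10 (limma adjusted p = 6.08e-10) in T47D-Y and 0.74 ± 0.10 (adjusted p = 2.21e-05) in T47D-co. Its row shares a locus with GRINA and SPATC1, and how fragments were divided there bears on these values, as given further on.

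ZC3HAV1, the antiviral RNA-binding protein, changed least of the 6. T47D-Y libraries had 1438, 1417 and 1401 scaled fragments with EtOH and water and 1957, 1929 and 1968 with EtOH and IFN. T47D-co libraries had 1099, 1166 and 1116 with water and 1371, 1321 and 1405 with IFN. Replicates were close and the groups separate, so that rises of 0.46 ± 0.05 (limma adjusted p = 9.77e-08) and 0.28 ± 0.05 (adjusted p = 0.000683) were called. On the deposited scale, which lowers the median IFN change of all rows by 0.476 in T47D-Y and 0.179 in T47D-co, these values are -0.02 and 0.10 and neither is called.

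PARP1, the main sensor of DNA breaks, showed no call with IFN, with log2 fold changes of 0.02 in T47D-Y (95% interval -0.06 to 0.09) and 0.00 in T47D-co (-0.08 to 0.07). PARP2, its smaller relative, changed by 0.18 in T47D-Y (limma adjusted p = 0.234) and -0.03 in T47D-co (adjusted p = 0.978). PARP8, whose substrates are less well known, gave 0.14 ± 0.29 in T47D-Y (limma adjusted p = 0.882). Its IFN libraries there (660 to 685) all lay above its water libraries (589 to 621), a separation whose share over all rows was not counted. That error comes from 1 spread shared by all 8 groups, including T47D-co libraries as low as 3.17 scaled fragments. It may not describe the spread within T47D-Y. In the T47D-co groups given EtOH PARP8 was at 11.6 to 21.0 scaled fragments, too low for a change of 0.14 to be detectable.

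**Figure D2:**
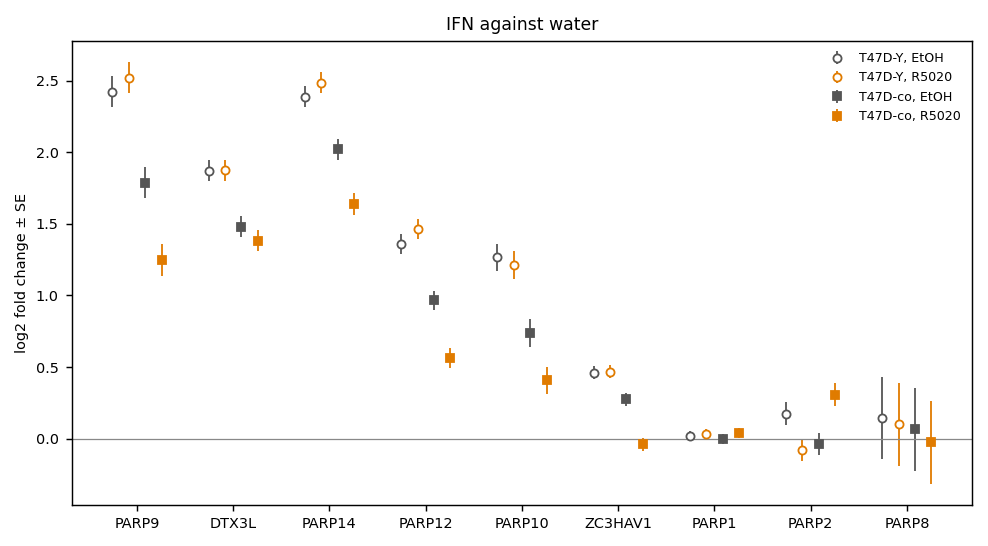
Log2 fold change of IFN against water for each of the 9 genes (points, limma estimate; bars, SE) in T47D-Y (open circles) and T47D-co (filled squares), given EtOH (grey) or R5020 (orange). From PARP9 to ZC3HAV1 the T47D-Y estimates lie above those of T47D-co, and the T47D-co estimates with R5020 lie below those with EtOH.

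The IFN changes of the 6 responding genes were smaller in T47D-co than in T47D-Y, but the difference did not pass the test for any of them with the scaling used here. The interaction of line and IFN given EtOH was called for 0 of the 9 genes by limma, beside 0.377% of tested rows. At an unadjusted p under 0.05 stood 6 of the 9, beside 7.73% of tested rows. The estimates (T47D-co minus T47D-Y) were -0.63 for PARP9 (adjusted p = 0.0743), -0.53 for PARP10 (0.106), -0.39 for PARP12 (0.0736), -0.39 for DTX3L (0.123), -0.37 for PARP14 (0.19) and -0.18 for ZC3HAV1 (0.371). For PARP9 this rests partly on a single library: without T47D-co EtOH water replicate 1, its lowest T47D-co library, the estimate was -0.79 (adjusted p = 0.00541). The PARP10 interaction was called without T47D-Y EtOH water replicate 3 (-0.66, adjusted p = 0.00596) or without T47D-Y EtOH IFN replicate 1 (-0.62, adjusted p = 0.0403). Quantile normalization called 4 of the 9, PARP9 (-0.72, adjusted p = 0.0306), PARP10 (-0.60, 0.0437), PARP12 (-0.47, 0.0215) and DTX3L (-0.45, 0.0487). With rows at a shared locus summed, the joint locus of PARP9 and DTX3L was called (-0.47, adjusted p = 0.0318).

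R5020 altered PARP1, PARP9, PARP12, PARP14 and PARP8 in T47D-co without IFN, which is 5 of 9 beside 56.5% of all tested rows, and so no more than the background. Of these, 4 rose and PARP8 fell, beside 26.6% of rows higher and 30.0% lower. With IFN present, 6 of 9 were called beside 58.2% of rows, 2 higher and 4 lower, beside 27.5% and 30.6%. In T47D-Y, limma called 0 of the 9 genes with R5020 in either IFN state, beside 0.218% of rows with water and 0.298% with IFN. At an unadjusted p under 0.05 stood 0 of the 9, beside 4.21% and 5.97% of rows. Libraries given R5020 and EtOH did not overlap in either state for PARP8 (-0.09 with water, -0.14 with IFN) and ZC3HAV1 (0.05 in both). The share of all rows without overlap was not counted, so this separation has no background beside it and is not read as a response. For PARP8 the error of 0.29 is shared with the low T47D-co groups. In the T47D-co comparisons other markers moved too: 5 of 7 luminal markers fell with R5020 given water, with a median of -0.50 over the 7, and the basal keratin KRT5 averaged 261 scaled fragments with R5020 and 0.559 with EtOH. The summed level of 9 markers of other cell types was 955 to 1010 in the T47D-co libraries given EtOH and water and 965 to 1070 with R5020. Without KRT5 the sum of the other 8 was 954 to 1010 with EtOH and 713 to 821 with R5020, and COL1A1 (-0.41), ACTA2 (-0.32) and TP63 (-0.86) were called lower by limma. Their part in the results was not tested.

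PARP1 gave the steadiest response to the progestin. In T47D-co given water it held 2162, 2087 and 2135 scaled fragments with EtOH and 3022, 2880 and 3052 with R5020. Given IFN it held 2056, 2177 and 2144 with EtOH and 3102, 3009 and 3079 with R5020. The R5020 libraries lay above all 6 T47D-co EtOH libraries, and below the T47D-Y libraries, which ranged from 3208 to 3565 in the 4 groups. PARP1 rose by 0.49 ± 0.04 (limma adjusted p = 8.72e-12) with water and 0.53 ± 0.04 (adjusted p = 1.79e-12) with IFN, about 1.4-fold. The difference between the lines in this response, given water, was 0.50 ± 0.05 (adjusted p = 5.89e-09), with the T47D-Y estimate at -0.02. PARP1P1, a processed copy whose reads can be confused with those of PARP1, averaged 117 scaled fragments with EtOH and 164 with R5020 in T47D-co given water, against 2128 and 2985 for PARP1.

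**Figure D3:**
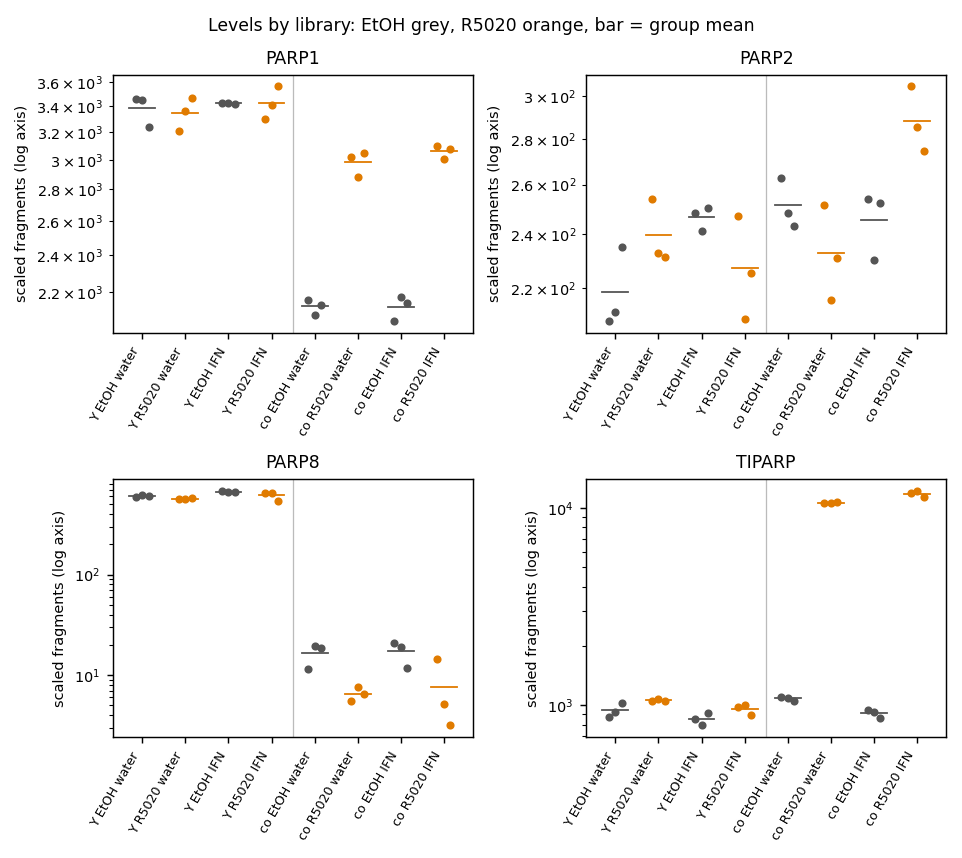
Level of PARP1, PARP2, PARP8 and the further PARP gene TIPARP in each of the 24 libraries, in scaled fragments on a log axis with its own range per gene; points are libraries (grey EtOH, orange R5020), bars are means of 3. PARP1 and TIPARP separate by R5020 in T47D-co, PARP8 lies at or below 21.0 in T47D-co, and PARP2 spans 209 to 305 over all libraries.

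PARP9 and PARP12 rose with R5020 in T47D-co cells that had no IFN. PARP9 went from 179, 269 and 224 scaled fragments with EtOH to 299, 329 and 349 with R5020, a rise of 0.55 ± 0.11 (limma adjusted p = 0.000109). PARP12 went from 230, 246 and 252 to 307, 346 and 357, a rise of 0.47 ± 0.07 (adjusted p = 1.58e-06). In both cases the R5020 libraries lay above all EtOH libraries. With IFN present the R5020 and EtOH groups of both genes overlapped: PARP9 gave 0.01 (adjusted p = 0.926, interval -0.21 to 0.24) and PARP12 0.07 (adjusted p = 0.412, interval -0.07 to 0.21). DTX3L, which shares its locus with PARP9, was not called in either state, at 0.10 (adjusted p = 0.281) and 0.00 (adjusted p = 0.986). Against T47D-Y, the R5020 response given water differed by 0.52 ± 0.15 for PARP9 (adjusted p = 0.00798) and by 0.51 ± 0.10 for PARP12 (adjusted p = 8.82e-05). In all, 4 of the 9 genes were called in that comparison of lines, beside 44.6% of rows.

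ZC3HAV1 and PARP10 fell with R5020 in T47D-co cells that had IFN. ZC3HAV1 was 1371, 1321 and 1405 scaled fragments with EtOH and IFN and 1170, 1126 and 1076 with R5020 and IFN, a fall of 0.28 (log2 fold change -0.28 ± 0.05, limma adjusted p = 7.33e-06). Those R5020 libraries lay within the range of the T47D-co libraries without IFN, 1064 to 1251. PARP10 was 725, 803 and 750 with EtOH and 615, 585 and 652 with R5020, a change of -0.30 ± 0.10 (adjusted p = 0.00957). Without IFN neither gene was called, at 0.04 (adjusted p = 0.536) for ZC3HAV1 and 0.03 (adjusted p = 0.81) for PARP10.

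PARP14 moved little and in opposite directions, by 0.18 ± 0.08 (limma adjusted p = 0.0409) with water and by -0.20 ± 0.08 (adjusted p = 0.0261) with IFN. The water groups, 186 to 196 with EtOH and 197 to 244 with R5020, nearly meet, and the IFN groups, 683 to 823 and 633 to 705, overlap. The call with water was lost without T47D-co R5020 water replicate 3, its highest library (0.09, adjusted p = 0.323), and without T47D-co EtOH water replicate 1 or 3. The call with IFN was lost without T47D-co EtOH IFN replicate 1 or 3 or T47D-co R5020 IFN replicate 3 (adjusted p = 0.114 to 0.129). Scaling to equal totals took the value with water to 0.08 (adjusted p = 0.396).

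PARP2 was called higher with R5020 in T47D-co given IFN, where it went from 254, 230 and 253 scaled fragments to 305, 285 and 275, a rise of 0.23 ± 0.08 (limma adjusted p = 0.0131). The call was lost without T47D-co EtOH IFN replicate 2 (adjusted p = 0.0722) or T47D-co R5020 IFN replicate 1 (adjusted p = 0.0677), and with equal totals (0.12, adjusted p = 0.191). PARP8 in T47D-co was 11.6, 19.3 and 18.4 with EtOH and water and 5.52, 7.56 and 6.50 with R5020 and water. With IFN it was 21.0, 19.1 and 11.9 with EtOH and 14.6, 5.11 and 3.17 with R5020, and these groups overlap. Falls of 1.19 ± 0.29 (adjusted p = 0.000998) and 1.28 ± 0.29 (adjusted p = 0.000466) were called on the log2(value + 1) scale, on which changes of such low levels are understated.

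**Figure D4:**
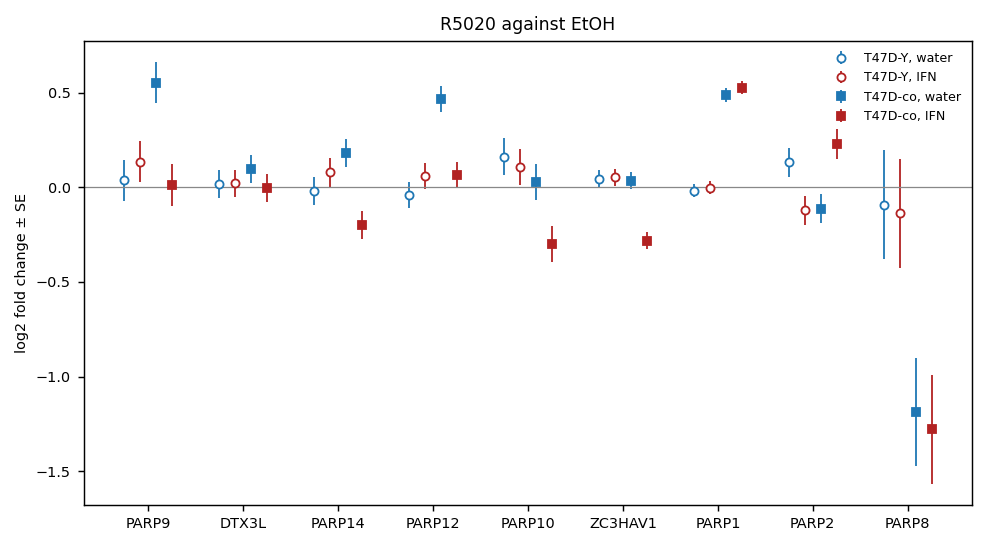
Log2 fold change of R5020 against EtOH for each of the 9 genes (points, limma estimate; bars, SE) in T47D-Y (open circles) and T47D-co (filled squares), given water (blue) or IFN (red). The T47D-Y points lie between -0.14 and 0.16, and in T47D-co PARP9 and PARP12 separate by IFN state while PARP1 does not.

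When both agents were combined in T47D-co, the IFN response was smaller than with IFN and EtOH for PARP12 and ZC3HAV1. The interaction of R5020 with IFN was called lower for these 2 of 9 genes, beside 1.01% of rows called in either direction and 0.134% called lower. It was -0.40 ± 0.10 for PARP12 (limma adjusted p = 0.0413) and -0.32 ± 0.06 for ZC3HAV1 (adjusted p = 0.0163). The estimates for PARP9 (-0.54 ± 0.15, adjusted p = 0.0879), PARP14 (-0.38 ± 0.11, adjusted p = 0.0788) and PARP10 (-0.33 ± 0.14, adjusted p = 0.233) did not pass. DTX3L gave -0.10, with an interval of -0.31 to 0.12. The PARP12 call was lost when any of 10 libraries was left out, among them T47D-co EtOH water replicate 1 (-0.36, adjusted p = 0.111), and the ZC3HAV1 call with the groups of T47D-co fitted alone (adjusted p = 0.0696). PARP9 was called without T47D-co EtOH water replicate 2, a library with few mitochondrial transcripts (-0.68, adjusted p = 0.0256), and PARP14 without T47D-co EtOH IFN replicate 2 (-0.47, adjusted p = 0.0368).

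The 2 called interactions came about differently in the levels. For PARP12, the IFN groups with EtOH and R5020 overlapped (475 ± 22.5 and 498 ± 6.09 scaled fragments, mean ± SD, n = 3), and the water groups were apart (243 ± 11.5 and 337 ± 26.2). For ZC3HAV1, the water groups overlapped (1127 ± 34.9 and 1157 ± 93.7) and the IFN groups were apart (1366 ± 42.2 and 1124 ± 46.7). With R5020, IFN left ZC3HAV1 uncalled in T47D-co at -0.04 ± 0.05 (limma adjusted p = 0.638). On the deposited scale, which lowers the median change of all rows there by 0.187, ZC3HAV1 was called lower (-0.23, limma adjusted p = 0.000461). With R5020, 6 of 9 genes were called higher with IFN in T47D-co, ZC3HAV1 no longer among them and PARP2 added, beside 11.2% of rows called and 7.56% called higher: PARP14 at 1.64, DTX3L at 1.38, PARP9 at 1.25, PARP12 at 0.56, PARP10 at 0.41 and PARP2 at 0.31. The PARP2 call was lost without T47D-co R5020 water replicate 2 (0.26, adjusted p = 0.0744) or T47D-co R5020 IFN replicate 1 (0.27, adjusted p = 0.0669).

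In T47D-Y, no change of the IFN response by R5020 was detected among the 9 genes. The same 6 genes that IFN raised with EtOH were called higher with R5020, beside 4.76% of rows called and 3.07% called higher, with log2 fold changes of 2.52 for PARP9, 2.49 for PARP14, 1.87 for DTX3L, 1.46 for PARP12, 1.21 for PARP10 and 0.47 for ZC3HAV1. Limma called the interaction in T47D-Y for 0 of the 9 genes and for 0% of all rows, of which 697 had an unadjusted p under 0.05. At an unadjusted p under 0.05 stood 1 of the 9, PARP2, at -0.25. Whether the interaction differs between the lines was not tested. Comparisons within a line share libraries: the IFN and R5020 changes given EtOH and water, respectively, use the same 3 untreated libraries, so their values for a gene are not independent.

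Between untreated lines, 7 of the 9 genes differed, beside 63.2% of all rows, so that differences were common throughout. PARP10 was 4.83-fold higher in T47D-co (455 ± 21.9 against 94.1 ± 16.2 scaled fragments, log2 fold change 2.27 ± 0.10, limma adjusted p = 9.2e-17). PARP8 was nearly missing from T47D-co (16.4 ± 4.24 against 606 ± 15.8, -5.15 ± 0.29, adjusted p = 3.05e-14). PARP14 was lower in T47D-co at 189 ± 5.44 against 375 ± 13.6 (-0.98 ± 0.08, adjusted p = 1.71e-11), as was PARP1 at 2128 ± 37.7 against 3386 ± 123 (-0.67 ± 0.04, adjusted p = 1.17e-14). ZC3HAV1 and DTX3L were lower by less, at -0.33 and -0.24. PARP9 (0.14, adjusted p = 0.268) and PARP12 (-0.04, adjusted p = 0.628) were not called. PARP2 was called higher at 0.20 (adjusted p = 0.0252), a call lost without T47D-Y EtOH water replicate 1 or 2 or T47D-co EtOH water replicate 1 and reversed on the deposited scale (-0.03).

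With EtOH and IFN, 8 of 9 genes differed between the lines, beside 62.7% of rows. PARP10 was then higher in T47D-co (1.75), PARP2 was not called, and the others were lower, PARP9 at -0.49 (limma adjusted p = 0.000351) and PARP12 at -0.44 (adjusted p = 3.97e-06) among them. With R5020 and water, 7 of 9 differed beside 68.5% of rows, and PARP9 (0.66) and PARP12 (0.47) were higher in T47D-co. With R5020 and IFN, 9 of 9 differed beside 68.3%. There PARP9 (-0.62) and PARP12 (-0.43) were lower in T47D-co, ZC3HAV1 stood at -0.85 and PARP14 at -1.63.

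Ordered over the 8 groups, the 5 genes other than ZC3HAV1 that IFN raised fell into 2 orders. PARP9, PARP12 and DTX3L had their water groups lowest, then T47D-co with IFN, then T47D-Y with IFN; the libraries of the 2 IFN groups within a line overlapped, as did each of the 4 water groups of DTX3L with the next in order. PARP14 followed the same order with T47D-co below T47D-Y in the water groups. PARP10 was ordered by line before treatment, from 94.1 in T47D-Y with EtOH and water to 759 in T47D-co with EtOH and IFN. For ZC3HAV1 the lowest groups were T47D-co with R5020 and IFN, EtOH and water, and R5020 and water, which overlap each other at means of 1124, 1127 and 1157. For PARP1 the T47D-co EtOH groups were lowest, the T47D-co R5020 groups followed, and the 4 T47D-Y groups overlapped at 3346 to 3424. For PARP2 the means of 7 groups ran from 219 to 251, each overlapping the next in this order though not all overlapped each other, below T47D-co with R5020 and IFN at 288.

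Per kilobase of exon (union of GENCODE v29 exons), the genes can be compared with each other. In untreated T47D-Y, PARP1 was most abundant at 795 scaled fragments per kb, followed by ZC3HAV1 at 172, PARP2 at 107, PARP8 at 76.4, DTX3L at 66.0, PARP12 at 65.9 and PARP14 at 47.3, with PARP10 at 25.9 and PARP9 at 25.6. In untreated T47D-co, PARP1 (500) and ZC3HAV1 (137) led again. There PARP10 reached 125 per kb, beside PARP2 at 123, and PARP8 was last at 2.07.

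PARP9 and DTX3L lie head to head at 1 locus (hg19 chr3:122246770-122294050), so the split of fragments between them was made by the authors' software. The ratio of PARP9 to DTX3L scaled fragments was 0.518 ± 0.00902 (mean ± SD, n = 3) in T47D-Y with EtOH and water and 0.761 ± 0.0196 with EtOH and IFN. In T47D-co it was 0.684 ± 0.118 with EtOH and water, 0.931 ± 0.0295 with R5020 and water, 0.839 ± 0.0455 with EtOH and IFN and 0.847 ± 0.0161 with R5020 and IFN. IFN shifted the pair toward PARP9 in T47D-Y without overlap of libraries, while in T47D-co given EtOH 1 library, replicate 1 of the water group at 0.55, lay far below its 2 companions. Summed over the locus, the pair rose with R5020 in T47D-co given water by 0.30 (limma adjusted p = 0.0012).

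**Figure D5:**
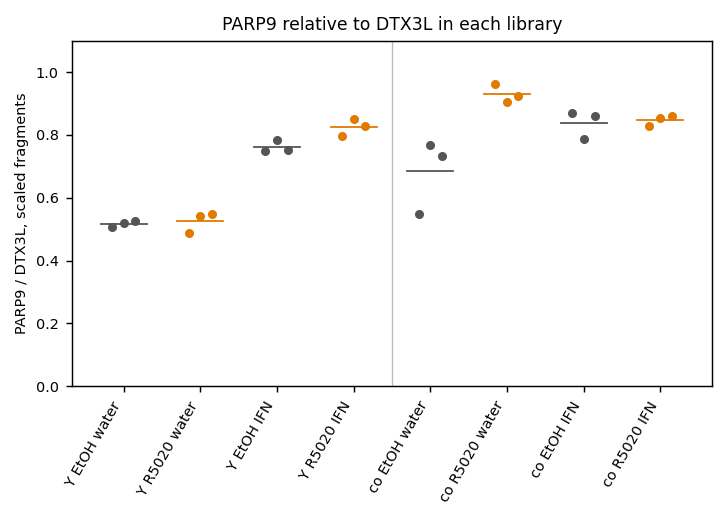
Ratio of PARP9 to DTX3L scaled fragments in each of the 24 libraries (points; grey EtOH, orange R5020), with the mean of 3 libraries as a bar; the axis starts at 0. The ratio is near 0.52 in both T47D-Y water groups and between 0.684 and 0.931 in the group means of T47D-co.

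PARP10 and PARP2 each share a locus with a far more abundant row. PARP10 lies with GRINA, a membrane protein gene, and SPATC1 at hg19 chr8:145051320-145101933, and made up 2.34 to 8.80% of the fragments of that locus. GRINA was not called with IFN in any of the 4 comparisons (adjusted p = 0.11 to 0.832). Summed over the locus, the IFN changes are 0.15 in T47D-Y (limma adjusted p = 0.0733) and 0.13 in T47D-co (adjusted p = 0.333) given EtOH, and the change with R5020 in T47D-co given IFN turns to 0.17. PARP2 lies with RPPH1, the RNA of ribonuclease P, at hg19 chr14:20811206-20826064, and made up 0.379 to 1.01% of that locus. RPPH1 fell with IFN in T47D-co given R5020 by 0.92 (adjusted p = 3.35e-06), while the PARP2 row rose. PARP1 (hg19 chr1:226548391-226595780), PARP8 (chr5:49961732-50142356), PARP12 (chr7:139723543-139763521), PARP14 (chr3:122399464-122449687) and ZC3HAV1 (chr7:138728265-138794465) are alone at their loci.

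Of 54 further genes of ADP-ribose biology, 52 had a tested row: other PARP genes, enzymes and domains that remove or read ADP-ribose, repair partners, NAD metabolism, and relatives or cofactors of DTX3L and ZC3HAV1. With IFN given EtOH, 1 of these was called higher and 1 lower in each line, 3.85% of the 52. Over all rows 1.00% were called in T47D-co and 4.46% in T47D-Y. R5020 in T47D-co given water called 18 higher and 24 lower, 80.8% of the 52 beside 56.5% of all rows. Among the 8 tested other PARP genes, R5020 called 2 higher and 5 lower there. With R5020 in T47D-Y, limma called 0 of the 52 in either IFN state, beside 0.218% of all rows with water and 0.298% with IFN. In each state 2 of the 52 had an unadjusted p under 0.05, beside 4.21% and 5.97% of all rows.

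TIPARP, a mono-ADP-ribosyltransferase known as a target and brake of the aryl hydrocarbon receptor, gave the largest change with R5020 among the 52. In T47D-co given water it went from 1106, 1088 and 1058 scaled fragments with EtOH to 10640, 10560 and 10760 with R5020, a rise of 3.30 ± 0.05 (limma adjusted p = 5.29e-25). Given IFN it went from 953, 927 and 864 to 11890, 12250 and 11340, a rise of 3.69 ± 0.05. The groups were 9.82-fold and 12.9-fold apart. T47D-Y libraries ranged from 793 to 1076 in the 4 groups, and TIPARP was not called with R5020 there. Given water, they were at 877, 925 and 1032 with EtOH and at 1057, 1076 and 1056 with R5020. Given IFN, they were at 849, 793 and 911 with EtOH and at 977, 1000 and 889 with R5020. IFN with EtOH lowered TIPARP in T47D-co (-0.25 ± 0.05, adjusted p = 0.0188), and its interaction of R5020 with IFN was 0.40 ± 0.08 (adjusted p = 0.0126), opposite in sign to those of PARP12 and ZC3HAV1.

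TRIM25, the ubiquitin ligase that serves ZC3HAV1 as a cofactor, rose with IFN given EtOH by 0.49 ± 0.04 (limma adjusted p = 9.27e-10) in T47D-Y and 0.16 ± 0.04 (adjusted p = 0.03) in T47D-co. These changes differed between the lines by -0.33 ± 0.05 (adjusted p = 0.00198). With R5020 in T47D-co given water it fell by 0.90 on the log2 scale, from 3130, 3047 and 3081 scaled fragments to 1632, 1718 and 1611. Given IFN it fell by 1.17, from 3481, 3447 and 3426 to 1482, 1581 and 1552. Its interaction of R5020 with IFN was -0.27 ± 0.05 (adjusted p = 0.0159), the same sign as for ZC3HAV1. NAMPT, the rate-limiting enzyme of NAD salvage, rose with R5020 in T47D-co by 1.19 ± 0.05 with water and 1.55 ± 0.05 with IFN. CHD1L, a chromatin remodeller with an ADP-ribose-reading macrodomain, rose by 1.72 ± 0.04 and 1.82 ± 0.04. DTX4, a relative of DTX3L, was at 82.2 scaled fragments in untreated T47D-co and 2252 in untreated T47D-Y (-4.77 ± 0.09), and in T47D-co it rose with R5020 given water by 0.91 ± 0.09.

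The rows most like each gene over the 24 libraries were found by Pearson's r, as a description of libraries that share treatments and lines. Searched were 11446 rows other than the 9 genes, with a mean of at least 50 scaled fragments and merged rows left out. PARP9 was nearest to MX1 (0.972), IFIT5 (0.971) and HERC6 (0.969). DTX3L was nearest to HERC6 (0.991), LAP3 (0.990) and PLSCR1 (0.976), and PARP14 to PLSCR1 (0.992), ADAR (0.984) and EIF2AK2 (0.983). PARP12 was nearest to HERC6 (0.967), LAP3 (0.961) and IFI27 (0.960), and ZC3HAV1 to STAT2 (0.952), CMYA5 (0.930) and INSIG1 (0.924). Outside this group, PARP10 was nearest to C6orf62 (0.966), RBCK1 (0.957) and DOK3 (0.954), PARP1 to GAB2 (0.990), CD9 (0.989) and FAM13C (0.989), and PARP8 to IRAK2 (0.994), IVL (0.994) and CD82 (0.993). For PARP2 none of the searched rows passed 0.816, the value of RAP1A, followed by USP48 and ANKIB1 at 0.770 each. Among the 9 genes themselves, PARP9 was closest to PARP12 (0.989), ahead of its locus partner DTX3L (0.964), and DTX3L was about as close to PARP14 (0.965).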

How the data were processed

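Total RNA extracted with Trizol was sequenced from 24 libraries, 3 biological replicates in each of 8 groups taken from the labels, which name an Illumina MiSeq. Per the submitters' processing notes, TopHat2 2.0.12 and Cufflinks 2.2.1 were used with the human build GRCh37 (hg19). Filters and counting options are not given in the sources used here. The deposited table holds a signal with no named unit, per the file headers. Among rows with a locus to themselves, 97.7 to 98.8% of a library's values were multiples of a step (tolerance 0.05 step), and 60.1 to 63.0% over all rows, so they were read as estimated fragments divided by a factor per library, and no count test was run. The deposited factors differ in scale between the 4 blocks of line and IFN state, by log2 offsets of 0.274, -0.206, 0.0508 and -0.133. They were replaced by median-of-ratios factors over the 24 libraries, from 14184 rows with a mean of at least 50 fragments. A further 25 rows of repeated symbols were left out.

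Rows that reached 10 scaled fragments in 3 or more libraries (20162) were fitted as log2(value + 1) with limma 3.58.1 in R 4.3.3, with a variance trend, 8 group means and 16 residual degrees of freedom, after parsing in Python 3.11.15. The 16 comparisons used two-sided tests with Benjamini-Hochberg adjustment over all tested rows, called under 0.05. The script was tested on simulated data. The 9 genes, the lists of related genes and the tests were chosen with earlier results of these data known. Named were all 9 genes, up to 4 called genes of the lists per comparison (largest change, mean of at least 50), TIPARP, the 3 rows most like each gene, and PGR, ISG15 and FKBP5 as label checks. Some genes under this rule are left out for length. Marker values, and TRIM25 and DTX4 in further comparisons, were added after their values were seen.

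Alternatives were 3 other scalings, a pseudocount of 10, no filter, no variance trend, the compared groups only, a replicate block, leaving out each library, leaving out the 4 libraries with few mitochondrial transcripts, and summing rows at a shared locus.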

Additional observations from a re-analysis of the deposited data

Results flagged for a closer look

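In 6 cases a response of a gene differed between groups by a test of the difference itself (limma, Benjamini-Hochberg adjusted). The IFN response in T47D-co differed between R5020 and EtOH by -0.40 for PARP12 (adjusted p = 0.0413) and by -0.32 for ZC3HAV1 (adjusted p = 0.0163) on the log2 scale. This PARP12 call was lost with equal totals, quantile normalization, no variance trend or the compared groups only (adjusted p = 0.0583 to 0.0762). It was also lost without the 4 libraries with few mitochondrial transcripts (adjusted p = 0.0849) and without any of 10 single libraries. The ZC3HAV1 call was lost with no variance trend (adjusted p = 0.0565) or the compared groups only (adjusted p = 0.0696). The R5020 response given water differed between the lines, as T47D-co minus T47D-Y, by 0.50 for PARP1 (adjusted p = 5.89e-09), 0.52 for PARP9 (adjusted p = 0.00798), 0.51 for PARP12 (adjusted p = 8.82e-05) and -1.10 for PARP8 (adjusted p = 0.0308). The PARP8 value rests on T47D-co levels of 5.52 to 19.3 scaled fragments, and its call was lost without the 4 libraries with few mitochondrial transcripts (-0.97, adjusted p = 0.225) and without any of 5 libraries: T47D-Y EtOH water replicate 1, T47D-Y R5020 water replicate 3, T47D-co EtOH water replicates 2 and 3, and T47D-co R5020 water replicate 1.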

How the results depend on the processing

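Groups of 3 libraries limit what could be called, and low levels limit PARP8 in T47D-co. The replicate numbers did not pair the libraries: over 36 same-numbered pairs in 12 comparisons the residual correlations were -0.056 to 0.056. With the replicate number as a block the members called for line by IFN given EtOH went from 0 to 2, PARP9 and PARP12 (adjusted p = 0.0428 and 0.0161). The block also brought DTX3L between the lines given R5020 and water to an adjusted p of 0.0499 and PARP2 in line by R5020 to 0.0486, and it turned no direction.

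Members called for R5020 by IFN in T47D-co went from 2 to 1 with equal totals or quantile normalization and to 0 with no variance trend or with the compared groups only, and stood at 1 to 2 when 1 library was left out. For line by IFN given EtOH they went from 0 to 1 on the deposited scale, 4 with quantile normalization and 2 with loci summed, and stood at 0 to 1 when 1 library was left out. For the other 14 comparisons the count of called members stayed within 1.5 times under each alternative.

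The deposited scale shifts the median of all rows by -0.476 and -0.481 for IFN in T47D-Y, -0.179 and -0.187 for IFN in T47D-co, -0.234 and -0.211 for the lines given water and 0.297 for line by IFN, and equal totals shift the lines given R5020 and water by -0.158. On the deposited scale values turned for PARP1 with IFN (-0.15 in T47D-co given R5020, -0.46 and -0.45 in T47D-Y given EtOH and R5020), PARP2 with IFN in T47D-Y given EtOH (-0.30), ZC3HAV1 with IFN in T47D-Y (-0.018 given EtOH, -0.014 given R5020), PARP2 between untreated lines (-0.031) and PARP1 in line by IFN (0.28). Summing loci, which adds RPPH1 to PARP2 and GRINA to PARP10, turned PARP2 with IFN in T47D-co given R5020 (-0.92) and in T47D-Y given EtOH (-0.46), with R5020 in T47D-co given IFN (-0.30), and between the lines given EtOH and IFN (0.36), R5020 and water (0.42) and R5020 and IFN (-0.18). It also turned PARP10 with R5020 in T47D-co given IFN (0.17) and in line by R5020 (0.32), and DTX3L between the lines given R5020 and water (0.18). No called value changed sign under the other alternatives.

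Rows called over the whole table changed by more than 1.5 times in some cases. On the deposited scale IFN called 8440 in place of 202 rows in T47D-co given EtOH, 7205 in place of 2268 given R5020, and in T47D-Y 14709 in place of 899 and 14783 in place of 960, and line by IFN called 9526 in place of 76. Without the 4 libraries with few mitochondrial transcripts IFN called 128 (T47D-co, EtOH), 515 and 325 (T47D-Y), R5020 in T47D-Y given water 16 in place of 44, and R5020 by IFN in T47D-co 63 in place of 203. With the compared groups only, IFN called 120 and 1362 rows in T47D-co and 637 in T47D-Y given R5020, R5020 in T47D-Y 27 and 15 (in place of 44 and 60), and R5020 by IFN in T47D-co 117. Quantile normalization gave 1402 rows for IFN in T47D-co given R5020. R5020 by IFN in T47D-co called 74 with equal totals, 67 with quantile normalization and 59 with no trend. Leaving out 1 library moved R5020 by IFN in T47D-co to 75 to 415 rows (by over 1.5 times for 10 T47D-co libraries). It moved IFN in T47D-co given R5020 to 1154 to 2991, with 1410 and 1212 without R5020 water replicates 1 and 2 and 1154 and 1254 without R5020 IFN replicates 1 and 2. IFN in T47D-Y given R5020 fell to 549 and 526 without R5020 water replicates 2 and 3 and to 550 and 630 without R5020 IFN replicates 1 and 2. IFN in T47D-Y given EtOH fell to 576 without EtOH water replicate 2, and R5020 in T47D-Y given IFN to 32 without R5020 IFN replicate 1. R5020 by IFN in T47D-Y went from 0 to 2 and 1 without EtOH IFN replicates 2 and 3.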

Other observations

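Further genes of ADP-ribose biology differed between the lines. With EtOH and water, ADPRH, an enzyme that removes ADP-ribose from arginine, was at 4.01 scaled fragments in T47D-co and 61.7 in T47D-Y (-3.62 ± 0.31, limma adjusted p = 1.58e-10), and with R5020 and water at 19.2 in T47D-co. APLF, a repair factor with ADP-ribose-binding zinc fingers, was lower in T47D-co at 19.3 against 84.4 (-2.07 ± 0.20, adjusted p = 1.29e-09). NMRK1, a kinase that feeds NAD synthesis, was lower at 292 against 696 (-1.25 ± 0.07, adjusted p = 7.27e-15). Of 12 tested genes of NAD supply and use, R5020 in T47D-co given water called 1 higher, NAMPT, and 7 lower, beside 26.6% of all rows called higher and 30.0% lower, with a median of -0.15 beside -0.04 over all tested rows.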
